A study of Mus musculus with 16 samples.

Results

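Striatal gene expression after risperidone was compared between the inbred mouse strains DBA/2J and A/J, as the 4 DBA/2J risperidone arrays minus the 4 A/J risperidone arrays. These 8 of the 16 arrays in the series were chosen by their strain and treatment labels alone. The mice were males of the substrains A/JOlaHsd and DBA/2JRccHsd, aged 7 to 8 weeks, and both groups received risperidone at 1 mg/kg by intraperitoneal injection once a day for 3 days. The other 8 arrays come from 4 mice of each strain that are labelled untreated, although the protocol names saline injections, and they are called control mice here. Total RNA from the striatum was hybridised to Affymetrix mouse arrays, 1 per biological replicate, and 45037 probe sets were tested, of which 28898 name a single gene, for 17097 genes in all. Levels are on the log2 scale, so that a difference of 1 is 2-fold, and every difference is DBA/2J minus A/J. Where 4 values are listed for a strain, they are those of replicates 1 to 4 in that order.

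Risperidone, used against psychosis, is an antagonist at D2 dopamine receptors and 5-HT2A serotonin receptors. The striatum, the main input nucleus of the basal ganglia, consists largely of GABA-releasing projection neurons that carry D1 or D2 dopamine receptors and make neuropeptides such as substance P or enkephalin. Inbred strains differ in expression at many loci without any treatment, through sequence variants, copy number differences and mobile element insertions. A variant under the probes can also change hybridisation without a change in RNA, so a strain difference in 1 probe set is a difference in array signal.

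The arrays labelled A/J and risperidone were not alike, which bears on every value below. Strain markers were taken from the 8 control arrays alone, as 134 probe sets with an adjusted p under 0.01, a gap between strain means of 1 or more and a mean of 6 or more in whichever strain was higher. DBA/2J had the higher mean for 68 of these and A/J for 66. Each risperidone array was then placed between the A/J control mean (0%) and the DBA/2J control mean (100%) of each marker. Median positions of A/J replicates 1 to 4 were 30.5%, 41.3%, 1.6% and 38.4%. For DBA/2J replicates 1 to 4 they were 84.1%, 95.6%, 99.4% and 91.8%. The medians of A/J replicates 1, 2 and 4 differed by marker direction on this scale, at 44.0%, 53.3% and 54.8% over markers higher in DBA/2J and at 17.0%, 21.5% and 26.5% over markers higher in A/J. On unlogged intensities the same medians were 28.3%, 36.3% and 39.4%, and 25.5%, 32.9% and 39.5%. Replicate 3 thus lay at the A/J control level, while replicates 1, 2 and 4 lay between the strains, against their label. On unlogged intensities the A/J positions were 27.6%, 35.3%, 2.25% and 39.5%, and the quartiles over markers were 18.8% and 37.7%, 30.3% and 44.0%, -4.61% and 12.4%, and 31.4% and 47.7%.

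**Figure D1:**
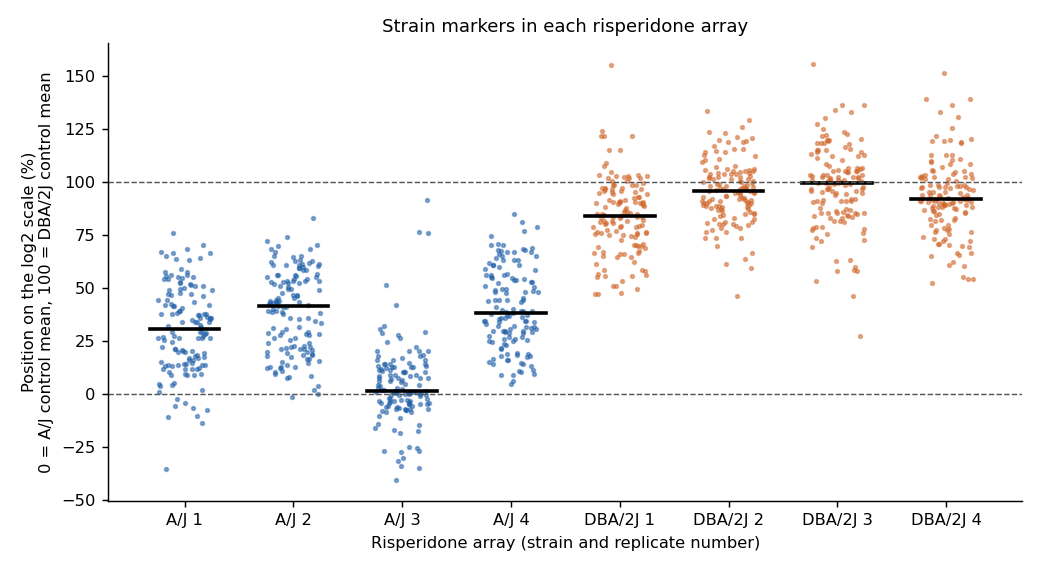
Position of 134 strain markers in each risperidone array, where 0% is the A/J control mean and 100% the DBA/2J control mean on the log2 scale; each point is 1 probe set and each bar the median. A/J replicates 1, 2 and 4 have medians of 30.5%, 41.3% and 38.4%, A/J replicate 3 has 1.6%, and the DBA/2J arrays lie between 84.1% and 99.4%.

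The intermediate position was spread over the markers. Replicate 3 was the A/J array farthest from DBA/2J in 117 of the 134 markers, against 12 for replicate 1, 1 for replicate 2 and 4 for replicate 4. On the unlogged scale 95, 117 and 121 markers of replicates 1, 2 and 4 lay between 20% and 60%, and 20 markers of replicate 3 did. For 12 chromosomes with at least 3 markers each, 60 markers in all, chromosome medians ran from 15.2% to 44.6% for replicate 1, from 21.6% to 51.4% for replicate 2 and from 25% to 53.5% for replicate 4. Those of replicate 3 ran from -4.72% to 15.2%. What places replicates 1, 2 and 4 between the strains was not tested, and comparisons are therefore given with and without replicate 3.

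The size of the strain difference depended on the A/J array. Over the 134 markers the median absolute difference was 1.51 in control mice, 1.4 against A/J risperidone replicate 3, 0.80 against replicates 1, 2 and 4, and 0.94 against all 4. The slope of the risperidone difference on the control difference was 0.91 for replicate 3 and 0.56 for replicates 1, 2 and 4. In the latter it was 0.39 over markers higher in DBA/2J and 0.74 over markers higher in A/J. The 20 markers at least 2 higher in DBA/2J control mice had a median of 2.48 there, differences of 0.70 to 1.38 (median 0.93) against replicates 1, 2 and 4, and differences of 1.76 to 4.21 (median 2.36) against replicate 3. The 17 markers with a control difference of -2 or less had medians of -2.34 in control mice, -2.10 against replicates 1, 2 and 4 and -2.52 against replicate 3. Among markers higher in DBA/2J the difference against replicates 1, 2 and 4 thus levelled off, and among markers higher in A/J it followed the control difference more closely.

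**Figure D2:**
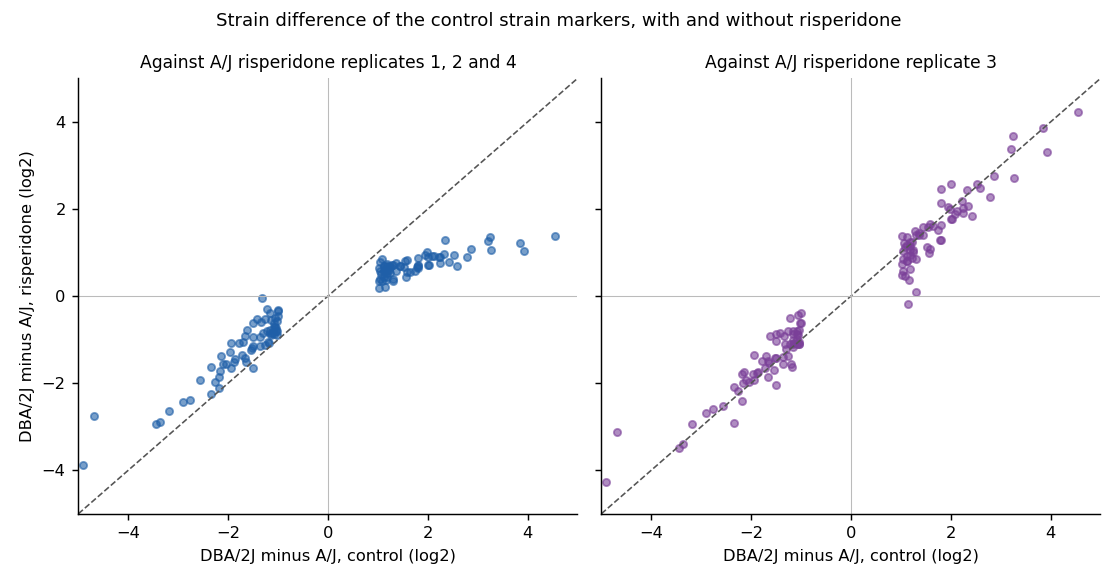
DBA/2J minus A/J log2 difference of 134 strain markers in control mice (horizontal axis) and risperidone mice (vertical axis), with the A/J side from risperidone replicates 1, 2 and 4 (left) or replicate 3 (right); the dashed line marks equality. On the right the points follow the line (slope 0.91), and on the left the markers higher in DBA/2J level off, none of the 20 with a control difference of at least 2 exceeding 1.38.

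With limma over all 16 arrays, 352 probe sets (0.782%) had an adjusted p under 0.05 for strain in risperidone mice, 157 higher in DBA/2J (0.349%) and 195 lower (0.433%). They name 175 genes (1.02% of genes), 89 with a probe set higher (0.521%) and 88 with one lower (0.515%), and 143 of the probe sets name no gene. The median absolute difference of the called probe sets was 0.68, the smallest was 0.32, and 76 differed at least 2-fold. The strains did not overlap in 349 of the 352, which a call on the same arrays itself favours, against 7.68% of all probe sets. Over all genes the median difference was 0.018 and 55.0% were higher in DBA/2J, the share beside which list counts below are to be read. By the probe set of highest mean alone, 110 genes passed (0.643%), 1514 had an unadjusted p under 0.05 (8.86%) and 1344 had no overlap between strains (7.86%). Without A/J replicate 3 the count was 184 probe sets (0.409%), 182 of them among the 352. With replicate 3 as the only A/J risperidone array, whose spread is then assumed to equal that of the other groups, it was 218 (0.484%), 150 of them among the 352. That fit has 1 A/J risperidone array, so a call can miss there even where the difference is no smaller. Of the 352, chosen on all 4 A/J arrays, the median absolute difference was 0.86 against replicate 3 alone and 0.60 without it. The count was 222 without A/J risperidone replicate 1, and 540 without DBA/2J control replicate 4, whose 61 ribosomal protein genes averaged 10.09 against 10.55 to 10.62 in the other DBA/2J control arrays.

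Called genes without overlap between the strains were ranked by the difference of their brightest probe set. Lack of overlap in the leading genes below was thus a condition of the choice. Larger differences in other probe sets do not count towards the order. Such called probe sets, chosen after their values were seen, include those of Ptprg, a receptor tyrosine phosphatase (-1.79), and Camk2n1, an inhibitor of the kinase CaMKII (-1.72), below, and of Uqcr10 (1.93), Tmem64 (1.5) and the syntaxin gene Stx3 (1.23) above 0. Noncoding and multicopy transcripts were among the genes with the largest deficits in DBA/2J by this ranking. Erdr1, a pseudoautosomal gene of variable copy number, was at 9.86, 9.66, 9.87 and 9.20 in A/J and at 7.80, 7.32, 5.89 and 6.76 in DBA/2J. The lowest A/J array was well above the highest DBA/2J array, with a difference of -2.71 ± 0.32 (SE, n = 4 per group, limma adjusted p = 1.03e-04). Because the sequence is multicopy, the gene behind this signal is uncertain. Gas5, a noncoding RNA gene whose introns hold small nucleolar RNAs, was at 9.24, 9.29, 9.67 and 9.40 in A/J and at 8.19, 7.54, 7.55 and 7.67 in DBA/2J. A/J replicate 3 was the highest array, DBA/2J replicate 1 was the highest of its strain without reaching A/J, and the difference was -1.66 ± 0.13 (adjusted p = 1.20e-06). The other 2 Gas5 probe sets had differences of 0.23 (adjusted p = 0.555) and 0.33 (adjusted p = 0.49), so the deficit was seen by 1 of 3. Neat1, the noncoding RNA on which nuclear paraspeckles are built, was at 7.87, 7.73, 8.2 and 7.52 in A/J and at 6.90, 6.32, 6.15 and 6.31 in DBA/2J. The strains were apart in every array, by -1.41 ± 0.15 (adjusted p = 3.62e-05).

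Protein-coding genes were also among the 10 with the largest deficits. Baiap2l1, which links membranes to the actin cytoskeleton, was at 8.28, 7.97, 8.02 and 8.02 in A/J and at 6.59, 6.20, 6.13 and 6.0 in DBA/2J. It was 3.59-fold lower in DBA/2J (-1.84 ± 0.13, adjusted p = 1.84e-07), both of its probe sets were called, and replicates 2 to 4 of A/J were nearly equal. Ier5, an early response gene, was at 5.97, 5.92, 6.10 and 5.61 in A/J and at 4.84, 4.68, 4.63 and 4.59 in DBA/2J. Every A/J array exceeded every DBA/2J array, by -1.22 ± 0.11 on average (adjusted p = 5.59e-06), against -1.5 in control mice. Tnnt2, cardiac troponin T, was at 5.79, 5.5, 5.87 and 4.92 in A/J and at 4.52, 3.99, 4.15 and 3.76 in DBA/2J. A/J replicate 4 came closest to DBA/2J, and the difference was -1.42 ± 0.17 (adjusted p = 1.21e-04).

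Another 4 genes completed the 10 with the largest deficits by their brightest probe set. Catspere2, related to a subunit of the sperm calcium channel, differed by -1.53 (adjusted p = 2.80e-05). Sbsn, the epidermal protein suprabasin, differed by -1.30 (adjusted p = 5.88e-04), and B230208B08Rik, a cDNA-defined locus, by -0.96 (adjusted p = 3.54e-04). Sspn, sarcospan of the dystrophin complex, was at 5.30, 5.06, 5.37 and 4.65 in A/J and at 4.43, 4.39, 3.77 and 3.90 in DBA/2J. Its difference of -0.97 ± 0.18 passed (adjusted p = 0.0104), but missed without A/J replicate 3 (-0.88, adjusted p = 0.06) and with that array alone (-1.25, adjusted p = 0.0595). The other 9 of these genes passed in both fits.

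**Figure D3:**
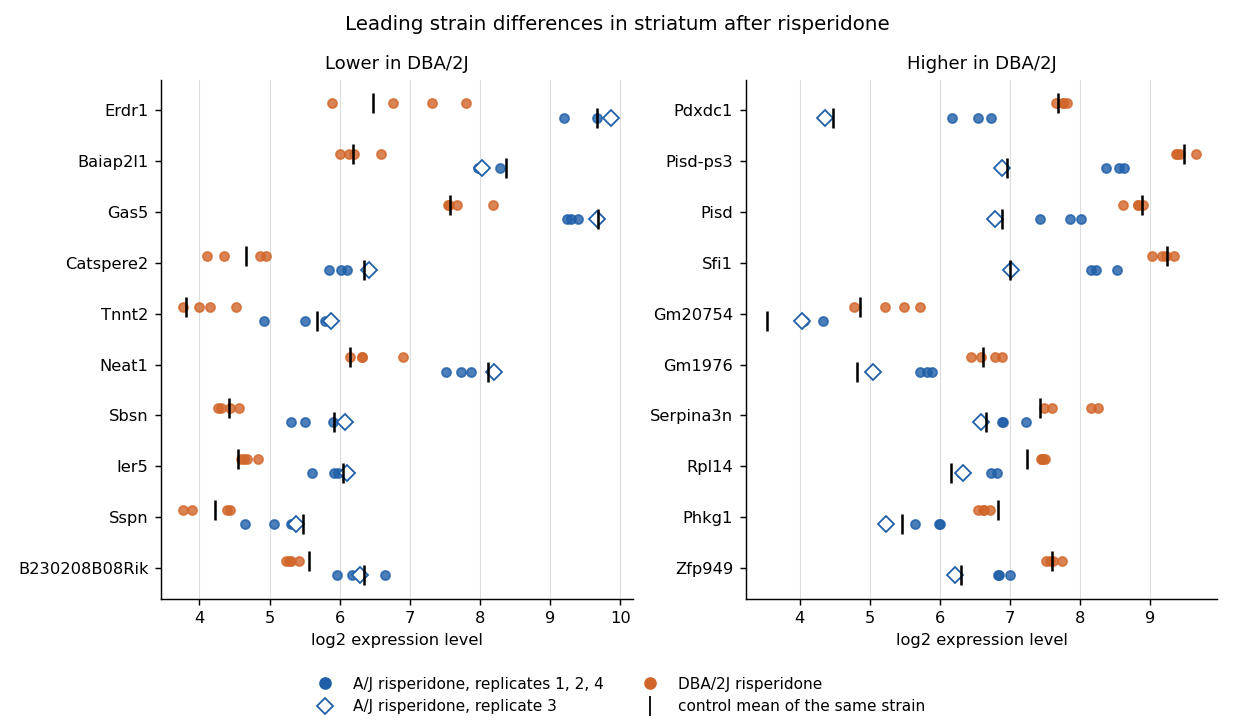
Log2 levels in the 8 risperidone arrays of the 10 genes with the largest called differences in each direction, each gene by its brightest probe set; blue is A/J (open diamond: replicate 3), orange is DBA/2J and black ticks are control means of the same strain. All 20 genes were chosen to have no overlap between strains. On the right the diamond sits near the A/J control mean in Pdxdc1, Pisd-ps3, Pisd, Sfi1 and Zfp949. The other A/J arrays are nearer to DBA/2J in these.

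Promoters are shown for 4 called genes, the noncoding Gas5, the early gene Ier5, the microglial receptor Cx3cr1 and the astrocytic inhibitor Serpina3n. By their brightest probe sets the first 3 were lower and the last higher in DBA/2J. Gas5 was called by 1 of 3 probe sets, with the other 2 at 0.23 and 0.33, and Cx3cr1 by 1 of 2. The sequences are printed so that their sites can be read beside the values. Each holds 300 bases, 250 before and 50 after a transcript start, from RefSeq (GRCm38.p6), 5′ to 3′ on the gene's strand. Capitals mark matches on either strand to 5 motifs: TATAAA for the TATA box, GGGCGG for the GC box, CCAAT for the box of that name, TTCNNNGAA for the STAT site and TGACGTCA for the cAMP response element; none of these matches overlap here. The windows are, in order, chr1:161034916-161035215 on the plus strand (one of 2 Gas5 starts in the table), chr1:155099587-155099886 on the minus strand, chr9:120068247-120068546 on the minus strand and chr12:104406458-104406757 on the plus strand.
Gas5: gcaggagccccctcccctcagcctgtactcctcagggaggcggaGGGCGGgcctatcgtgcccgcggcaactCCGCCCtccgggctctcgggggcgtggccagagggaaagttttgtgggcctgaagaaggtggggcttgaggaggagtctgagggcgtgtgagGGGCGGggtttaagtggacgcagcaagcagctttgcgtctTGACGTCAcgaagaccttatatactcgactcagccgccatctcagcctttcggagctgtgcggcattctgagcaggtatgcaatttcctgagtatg
Ier5: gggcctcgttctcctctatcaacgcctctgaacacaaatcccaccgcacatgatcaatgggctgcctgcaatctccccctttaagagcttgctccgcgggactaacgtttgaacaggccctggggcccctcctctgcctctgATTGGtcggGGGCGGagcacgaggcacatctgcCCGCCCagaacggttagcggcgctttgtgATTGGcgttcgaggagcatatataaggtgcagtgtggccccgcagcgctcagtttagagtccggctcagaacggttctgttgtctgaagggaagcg
Cx3cr1: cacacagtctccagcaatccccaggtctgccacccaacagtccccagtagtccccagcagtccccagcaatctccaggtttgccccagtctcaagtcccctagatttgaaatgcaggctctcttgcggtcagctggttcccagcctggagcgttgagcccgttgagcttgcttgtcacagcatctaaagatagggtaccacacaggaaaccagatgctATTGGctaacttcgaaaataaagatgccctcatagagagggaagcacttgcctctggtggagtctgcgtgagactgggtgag
Serpina3n: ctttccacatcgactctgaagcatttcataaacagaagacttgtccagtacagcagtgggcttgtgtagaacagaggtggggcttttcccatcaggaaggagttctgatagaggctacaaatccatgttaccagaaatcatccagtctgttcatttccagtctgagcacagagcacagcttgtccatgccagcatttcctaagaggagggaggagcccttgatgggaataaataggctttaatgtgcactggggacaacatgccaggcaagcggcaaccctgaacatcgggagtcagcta
The Gas5 window held 3 GC boxes and a cAMP response element, the Ier5 window 2 GC boxes and 2 CCAAT boxes, the Cx3cr1 window a CCAAT box, and the Serpina3n window none of these letters. Among 13605 measured genes with a promoter in the table, 57.3% held a GC box, 42.3% a CCAAT box, 11.8% a TATA box, 8.76% a STAT site and 2.93% a cAMP response element. In 70 genes with a call higher in DBA/2J the shares were 52.9%, 45.7%, 7.14%, 7.14% and 4.29%, and in 73 genes with a call lower 58.9%, 37.0%, 8.22%, 6.85% and 5.48%. The sequences are those of the reference strain, and a match describes letters, not binding.

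Among the genes with the largest excess in DBA/2J, A/J replicate 3 often stood far below the other A/J arrays. Pdxdc1, a gene for a predicted pyridoxal-dependent decarboxylase, was at 6.17, 6.55, 4.36 and 6.73 in A/J and at 7.75, 7.81, 7.65 and 7.76 in DBA/2J. Replicate 3 lay at the A/J control mean of 4.47 and the other A/J arrays lay between the strains. The difference was 1.79 ± 0.33 (adjusted p = 0.0107), 3.38 against replicate 3 alone and 1.26 without it. A second Pdxdc1 probe set was at 7.32, 7.09, 7.77 and 7.07 in A/J and at 5.47, 5.24, 5.0 and 5.27 in DBA/2J. It differed the other way, by -2.07 ± 0.14, with the smallest adjusted p of the comparison (1.62e-07), and the third was lower by a difference of -0.72 (adjusted p = 1.23e-04). No direction can be given for Pdxdc1 as a gene. The other gene with calls in both directions was Pnma2, a paraneoplastic antigen gene, at 0.63 (adjusted p = 0.00258) and -0.52 (adjusted p = 0.0269), the latter missing without A/J replicate 3 (adjusted p = 0.107) and with it alone (adjusted p = 0.37).

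Pisd, Pisd-ps3 and Sfi1 were higher in DBA/2J by nearly all of their probe sets. Pisd encodes the mitochondrial enzyme that makes phosphatidylethanolamine, Pisd-ps3 is a related pseudogene, and Sfi1 encodes a centrin-binding protein. Their sequences occur in several copies, so which copy gives the signal is uncertain. Pisd-ps3 was at 8.37, 8.55, 6.88 and 8.63 in A/J and at 9.38, 9.42, 9.65 and 9.37 in DBA/2J. Replicate 3 was the lowest A/J array, near the A/J control mean of 6.96, and the difference was 1.35 ± 0.25 (adjusted p = 0.0108), 2.58 against replicate 3 alone and 0.94 without it. Sfi1 was at 8.15, 8.23, 7.01 and 8.52 in A/J and at 9.02, 9.22, 9.34 and 9.17 in DBA/2J. It showed the same order of A/J arrays, with a difference of 1.21 ± 0.22 (adjusted p = 0.00967), and all 5 of its probe sets and all 3 of Pisd-ps3 were called. Pisd was at 7.43, 7.86, 6.79 and 8.01 in A/J and at 8.82, 8.61, 8.90 and 8.83 in DBA/2J. Its difference was 1.27 ± 0.19 (adjusted p = 0.00175), and 2 of its 3 probe sets were called. With the spread from the 8 risperidone arrays alone, Pisd-ps3 (adjusted p = 0.0944), Sfi1 (adjusted p = 0.0632) and Pdxdc1 (adjusted p = 0.083) missed the threshold, and Pdxdc1 also missed with trend and robust eBayes.

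The same order of A/J arrays appeared in probe sets chosen after their values were seen. A probe set of Uqcr10, a subunit of respiratory complex III, was at 5.87, 6.21, 3.87 and 6.52 in A/J and at 7.33, 7.69, 7.52 and 7.65 in DBA/2J. It differed by 1.93 ± 0.37 (adjusted p = 0.0123), whereas the Uqcr10 probe set of highest level differed by 0.09 (adjusted p = 0.879). A probe set of Tmem64, a transmembrane protein gene, was at 4.69, 4.82, 3.21 and 5.13 in A/J and at 6.16, 6.08, 5.73 and 5.87 in DBA/2J. Replicate 3 was again far below the other A/J arrays, and the difference was 1.5 (adjusted p = 0.0117).

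The other leading genes higher in DBA/2J differed in how far A/J replicate 3 lay from the other A/J arrays. Serpina3n, a protease inhibitor induced in reactive astrocytes, was at 6.90, 6.89, 6.59 and 7.23 in A/J and at 8.26, 7.60, 8.15 and 7.49 in DBA/2J. The strains did not overlap, by 0.97 ± 0.20 (adjusted p = 0.0223), but the call missed in 7 of 26 settings, among them without A/J replicate 3 (0.87, adjusted p = 0.113) and with that array alone (adjusted p = 0.127). Rpl14, a protein of the large ribosomal subunit, was at 6.30, 6.82, 6.33 and 6.73 in A/J and at 7.50, 7.47, 7.44 and 7.45 in DBA/2J. DBA/2J arrays were nearly equal and above all A/J arrays, by 0.92 ± 0.12 (adjusted p = 4.64e-04). Phkg1, a catalytic subunit of phosphorylase kinase, was at 5.65, 5.99, 5.23 and 6.0 in A/J and at 6.71, 6.62, 6.63 and 6.55 in DBA/2J. Replicate 3 was the lowest array, -0.65 from the mean of the other A/J arrays, and both Phkg1 probe sets were called, at 0.91 (adjusted p = 0.00174) and 0.79 (adjusted p = 9.11e-04). Zfp949, a zinc finger gene, differed by 0.89 (adjusted p = 9.38e-04), with replicate 3 at -0.68 from the mean of the other A/J arrays. Of the predicted genes Gm1976 differed by 1.06 (adjusted p = 0.00896) and Gm20754 by 1.18 (adjusted p = 0.00639). Against replicate 3 alone Gm20754 differed by 1.26, which missed the threshold with 1 A/J risperidone array.

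Next, A/J replicate 3 was compared with the mean of replicates 1, 2 and 4 in genes called by their brightest probe set. Only genes with a mean of 6 or more in the higher strain counted. In the 10 with the largest deviation replicate 3 was lower, and 7 of them were among the leading genes. A called Pdxdc1 probe set that is not the brightest had replicate 3 higher, by 0.61. Cog1, a subunit of a Golgi tethering complex, was at 6.81, 6.99, 6.33 and 6.94 in A/J and at 7.46, 7.50, 7.36 and 7.57 in DBA/2J. Replicate 3 was -0.58 from the mean of the other A/J arrays, and the difference of 0.70 ± 0.11 passed (adjusted p = 0.00331). Nxph3, a neurexin ligand, differed by 0.59 (adjusted p = 0.0476) and Syt13, a synaptotagmin, by 0.68 (adjusted p = 0.0497). Both missed without replicate 3 (adjusted p = 0.204 and 0.206), and in 17 and 16 of 26 settings. Over all calls, replicate 3 was the A/J array farthest from DBA/2J in 124 of the 157 probe sets higher in DBA/2J and in 133 of the 195 lower ones.

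Most strain calls after risperidone were also made in control mice, which are other animals. In control mice 1745 probe sets passed (3.87%), 907 higher in DBA/2J (2.01%) and 838 lower (1.86%), and they name 908 genes (5.31%), 592 of which passed by their probe set of highest mean (3.46%). Without A/J control replicate 3 the count was 1074, and that array stood apart in the thalamus list (mean level 6.86 against 5.74 to 6.13 in the other A/J control arrays) and in Slc6a3 (7.25 against 4.90 to 4.98). Both comparisons called 303, which is 86.1% of the risperidone calls and 17.4% of the control calls, all in the same direction. Of the 303, 240 had the smaller absolute difference in risperidone mice, with medians of 0.71 there and 0.94 in control mice. Fitted separately on 8 arrays each, the comparisons called 319 and 864 probe sets, with 221 in common, all in the same direction. Of the 134 control markers 106 passed in risperidone mice with all arrays, 83 without A/J replicate 3 and 94 with it alone. A/J replicates 1, 2 and 4 lay between the strains over these markers, and whether this has a part in the smaller differences was not tested.

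The interaction, the strain difference in risperidone mice minus that in control mice, called 0 probe sets with limma. At an unadjusted p under 0.05 there were 4140, and the smallest adjusted p was 0.0542. Without A/J risperidone replicate 3 it called 26 probe sets and 7 genes, and with that array alone 2 probe sets and 1 gene. Of the 10 genes with the smallest interaction p, none had an adjusted p under 0.207. Hbegf, a ligand of the epidermal growth factor receptor, was at 5.40, 5.62, 5.51 and 5.40 in A/J and at 5.88, 5.67, 5.90 and 5.79 in DBA/2J. The strains were apart by 0.33 (adjusted p = 0.112), against -0.32 in control mice. Egr2, a zinc finger early gene, was at 8.09, 8.00, 8.08 and 8.00 in A/J and at 7.56, 8.10, 7.57 and 7.89 in DBA/2J. Its strains overlapped, with -0.26 (adjusted p = 0.536) against 0.64 in control mice. The locus 4933439C10Rik had 0.36 against 1.18, Slc47a1, an organic cation exporter, -0.41 against 1.13, and the secreted protein gene Scube1 0.02 against 0.57. The transcription factor Klf2 had -0.13 against -0.78, Fbxo45, a ubiquitin ligase subunit, -0.21 against -0.84, and Plpp1, a lipid phosphatase, -0.07 against -0.71. Zc3h6 had 0.34 against -0.36 and Ttc39c 0.20 against -0.31.

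For 49 probe sets the strain call was made in risperidone mice and missed in control mice, and 44 of them had the same sign in control mice. An unadjusted interaction p under 0.05 was found for 22 of the 49, against 4140 of all 45037 probe sets. Choosing by a call in only 1 comparison itself favours a low interaction p on the same arrays. None passed the interaction, so a difference from control mice is not shown. The genes named next were chosen after their values were seen. Hopx, a homeodomain-only protein called by 1 of 2 probe sets, was at 7.09, 6.99, 6.95 and 7.19 in A/J and at 7.64, 7.49, 8.02 and 7.54 in DBA/2J. The strains were apart by 0.62 ± 0.11 (adjusted p = 0.00639), against 0.22 in control mice. Ptgs2, the inducible cyclooxygenase, also called by 1 of 2, was at 6.33, 6.17, 6.71 and 6.28 in A/J and at 5.88, 5.68, 5.88 and 5.65 in DBA/2J. A/J replicate 3 was the highest array, and the difference of -0.60 ± 0.12 (adjusted p = 0.016, -0.26 in control mice) missed without it (adjusted p = 0.0737). Per3, a circadian clock gene, was at 5.47, 5.27, 5.31 and 5.07 in A/J and at 4.53, 4.88, 4.85 and 4.62 in DBA/2J. By 1 of its 5 probe sets it was lower in every DBA/2J array, by -0.56 ± 0.10 (adjusted p = 0.00784), against -0.20 in control mice. Dclk1, a doublecortin-like kinase, had -0.47 against -0.07 by 1 of 8 probe sets, Plekha4 -0.66 against -0.21 by 1 of 4, and Slc38a6, an amino acid transporter, 0.61 against 0.41 by 1 of 2. Plekha4 and Slc38a6 missed without A/J replicate 3 (adjusted p = 0.172 and 0.0661), and against it alone they differed by -0.76 and 0.84. Against replicate 3 alone the differences were 0.72 for Hopx, -0.59 for Per3 and -0.33 for Dclk1. These genes, Plekha4 and Slc38a6 missed the threshold in that fit, which rests on 1 A/J risperidone array.

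The receptors that risperidone blocks, and the signalling they feed, held no strain call. Drd1, the D1 receptor, was at 6.17, 6.12, 5.99 and 5.93 in A/J and at 6.51, 6.02, 6.11 and 6.03 in DBA/2J. The strains overlapped, with 0.12 ± 0.12 (adjusted p = 0.83). Drd2, the D2 receptor, was at 4.16, 3.65, 4.09 and 4.07 in A/J and at 4.12, 4.20, 3.89 and 4.90 in DBA/2J. It overlapped too (0.28 ± 0.20, adjusted p = 0.714), at levels below the array medians of 5.66 to 5.71. Among 23 dopamine and cAMP signalling genes 13 were higher and 10 lower in DBA/2J, with a median of 0.01 and 0 called. Their smallest p values were those of Pde2a, a cyclic nucleotide phosphodiesterase (-0.28, adjusted p = 0.44), and Taar1, the trace amine receptor (0.16, adjusted p = 0.596). Among 13 serotonin receptors the median was 0.03 with 0 called, Htr4 being at 0.49 (adjusted p = 0.386) and Htr6 at -0.21 (adjusted p = 0.587). Adora2a and Htr2a have no probe set of their own in the annotation used here. Across 29 gene lists, 13 of 589 measured genes were called by any probe set, against 1.02% of all genes, and 21 lists held no call.

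Markers of striatal neurons did not separate the strains. Penk, the enkephalin precursor, was at 6.46, 6.70, 7.01 and 6.89 in A/J and at 7.98, 6.83, 7.40 and 7.41 in DBA/2J. DBA/2J replicate 1 was the highest array and the strains overlapped, with 0.64 ± 0.27 (adjusted p = 0.438). Tac1, the substance P precursor, was at 0.14 (adjusted p = 0.909) and Pdyn, the dynorphin precursor, at 0.01 (adjusted p = 0.989). The 20 projection neuron markers had a median of 0.01 with 0 called, among them Foxp1, a striatal transcription factor (-0.23, adjusted p = 0.451). The 15 interneuron markers had a median of 0.08 with 0 called, among them the neuropeptide gene Vip (0.30, adjusted p = 0.517) and the receptor gene Kit (0.17, adjusted p = 0.663). As a check of the tissue label, with genes chosen after their values were seen, Ppp1r1b, the phosphoprotein DARPP-32, was at 7.04, 7.09, 7.00 and 6.83 in A/J and at 6.6, 6.72, 7.00 and 6.71 in DBA/2J. Adcy5, the main striatal adenylyl cyclase, was at 8.24, 8.18, 8.35 and 8.08 in A/J and at 8.62, 8.16, 8.28 and 8.35 in DBA/2J. Both genes lay above the array medians of 5.66 to 5.71 in every risperidone array. Rgs9, also chosen after its values were seen, was only just above them at 5.78 to 6.12, and Drd2 was below them. The projection neuron list had a mean level of 6.27 to 6.38 in A/J and 6.23 to 6.40 in DBA/2J. For the cortex list it was 8.24 to 8.38 and 8.19 to 8.38. These levels are a description, and the tissue label was not tested.

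Genes of neighbouring tissue varied between arrays of 1 group, shown by Ttr, Tcf7l2, Slc6a3 and Th, which were also chosen after their values were seen. Ttr, transthyretin of the choroid plexus, was at 11.27, 11.55, 11.85 and 7.38 in A/J and at 11.97, 7.10, 8.69 and 6.84 in DBA/2J. It was high in A/J replicates 1 to 3 and in DBA/2J replicate 1, and the difference of -1.86 ± 1.14 did not pass (adjusted p = 0.672). Tcf7l2, a transcription factor of thalamic neurons, was at 6.69, 6.89, 7.89 and 7.44 in A/J and at 5.98, 6.34, 6.33 and 7.77 in DBA/2J. It was highest in A/J replicate 3 and DBA/2J replicate 4, with -0.62 (adjusted p = 0.757). The dopamine transporter gene Slc6a3 was at 4.95, 5.17, 4.87 and 5.61 in A/J and at 4.85, 4.92, 5.07 and 7.55 in DBA/2J, and Th, the rate-limiting enzyme of dopamine synthesis, at 4.68, 4.91, 4.82 and 5.69 in A/J and at 4.76, 4.98, 4.80 and 6.53 in DBA/2J. DBA/2J replicate 4 was thus high in genes of dopamine neurons, whose cell bodies lie in the midbrain. To a lesser degree A/J replicate 4 was the highest A/J array in both genes. The same held for Ddc, also chosen after its values were seen, at 5.85 there and 6.74 in DBA/2J replicate 4. The 13 thalamus markers had a median of -0.24 with 11 lower and 0 called, and the mean level of the list was 5.90 to 6.39 in A/J and 5.69 to 6.14 in DBA/2J. Their median was -0.56 against replicate 3 alone and -0.07 without it. Among them Rgs16 was at -0.44 (adjusted p = 0.322) and Lef1 at -0.53 (adjusted p = 0.311). For 11 genes of the choroid plexus or ependyma the median was 0.01, 0 were called, and the list had a mean level of 4.78 to 5.70 in A/J and 4.69 to 5.96 in DBA/2J. Sostdc1, a secreted signalling antagonist, was at -0.59 (adjusted p = 0.456) and Ccdc153 at 0.20 (adjusted p = 0.646). The part of tissue composition in the strain calls was not tested.

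**Figure D4:**
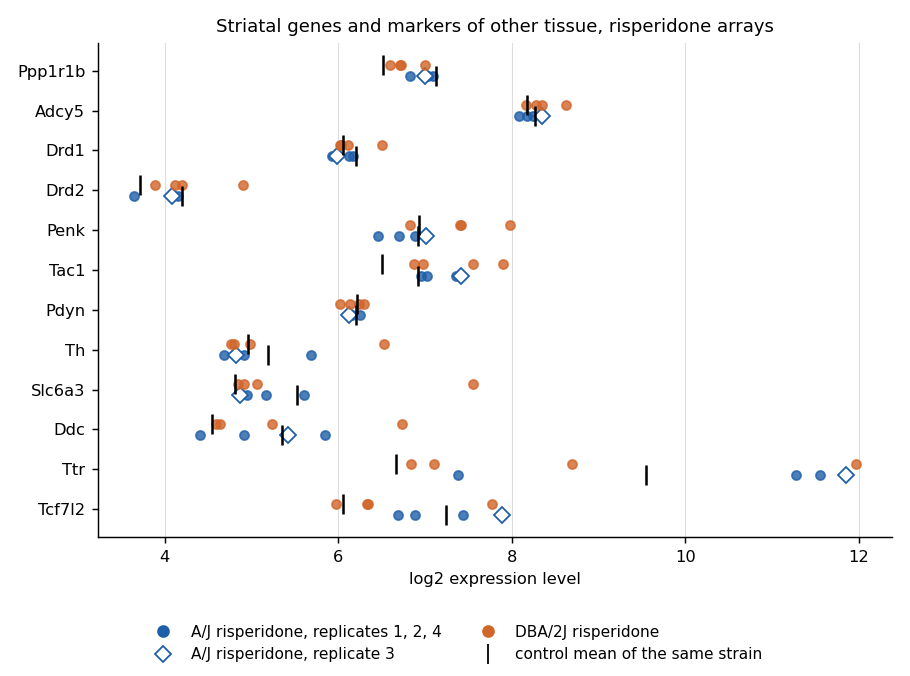
Log2 levels in the 8 risperidone arrays of striatal genes (Ppp1r1b to Pdyn), genes of dopamine neurons (Th, Slc6a3, Ddc), the choroid plexus gene Ttr and the thalamic gene Tcf7l2; blue is A/J (open diamond: replicate 3), orange is DBA/2J and black ticks are control means of the same strain. The striatal genes overlap between strains, Slc6a3 reaches 7.55 in DBA/2J replicate 4, and Ttr spans 6.84 to 11.97.

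Glial lists held 3 called genes. Cx3cr1, the fractalkine receptor of microglia, was called by 1 of its 2 probe sets. By that one it was at 7.47, 7.28, 7.54 and 7.40 in A/J and at 6.6, 6.62, 6.72 and 6.65 in DBA/2J. It was 1.71-fold lower in DBA/2J with no overlap (-0.78 ± 0.14, adjusted p = 0.00621), and missed with A/J replicate 3 alone (-0.89, adjusted p = 0.147). Fewer cells of a type, less RNA per cell and a variant under the probes cannot be told apart in such tissue samples. Cx3cr1 was the 1 called gene of 14 microglia markers. Of these 10 were lower and 4 higher, with Selplg the highest at 0.38. Their median was -0.12, and the mean level of the list was 6.38 to 6.52 in A/J and 6.31 to 6.40 in DBA/2J. Of 14 astrocyte markers (median 0.05) Serpina3n and Gfap, the astrocytic intermediate filament, were called. Gfap passed by a probe set at 4.81, 5.15, 4.73 and 4.90 in A/J and at 5.88, 6.16, 6.25 and 5.70 in DBA/2J. This one differed by 1.10 ± 0.13 (adjusted p = 1.03e-04), while the other 2 were at -0.03 and -0.03, so no direction is given for the gene. The 14 oligodendrocyte markers had a median of -0.07 with 0 called and a mean level of 7.64 to 7.91 in A/J and 7.28 to 8.04 in DBA/2J. Mog, a myelin surface protein, was at 6.98, 6.85, 7.32 and 7.15 in A/J and at 6.16, 6.47, 6.41 and 6.86 in DBA/2J. It overlapped by A/J replicate 2 and DBA/2J replicate 4, with -0.60 (adjusted p = 0.174), and Mbp, myelin basic protein, was at -0.35 (adjusted p = 0.333). The 12 endothelial markers had a median of 0.08 with 0 called, the tight junction gene Cldn5 being at 0.32 (adjusted p = 0.321) and Cdh5, a cadherin of endothelial junctions, at 0.24 (adjusted p = 0.424).

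Immune and blood lists lay close to 0. Of 29 interferon response genes (median 0.01) Xaf1, an antagonist of apoptosis inhibitors, was called by a probe set at 4.29, 4.93, 3.74 and 4.83 in A/J and at 5.25, 5.33, 5.27 and 5.5 in DBA/2J. A/J replicate 3 was its lowest array, and the difference was 0.89 (adjusted p = 0.0447), against 0.11 (adjusted p = 0.824) for its other probe set. Without replicate 3 the call was lost (0.65, adjusted p = 0.147). The 23 genes of antigen presentation had a median of 0.06 with 0 called, among them the class I genes H2-T23 (0.47, adjusted p = 0.139) and H2-K1 (-0.09, adjusted p = 0.806) and H2-DMa, which helps to load class II molecules (0.34, adjusted p = 0.229). The 16 complement genes had a median of -0.07 with 0 called, among them Cfb, complement factor B (-0.28, adjusted p = 0.387), and C6 (-0.27, adjusted p = 0.326). The 4 blood markers had a median of -0.12 with 0 called, with the globin genes Hba-a1 at -0.23 (adjusted p = 0.833) and Hbb-b2 at -0.17 (adjusted p = 0.849). The 13 cortex markers had -0.06 with 0 called, with Mef2c, a neuronal transcription factor, at -0.31 (adjusted p = 0.163) and Lamp5 at -0.16 (adjusted p = 0.782).

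**Figure D5:**
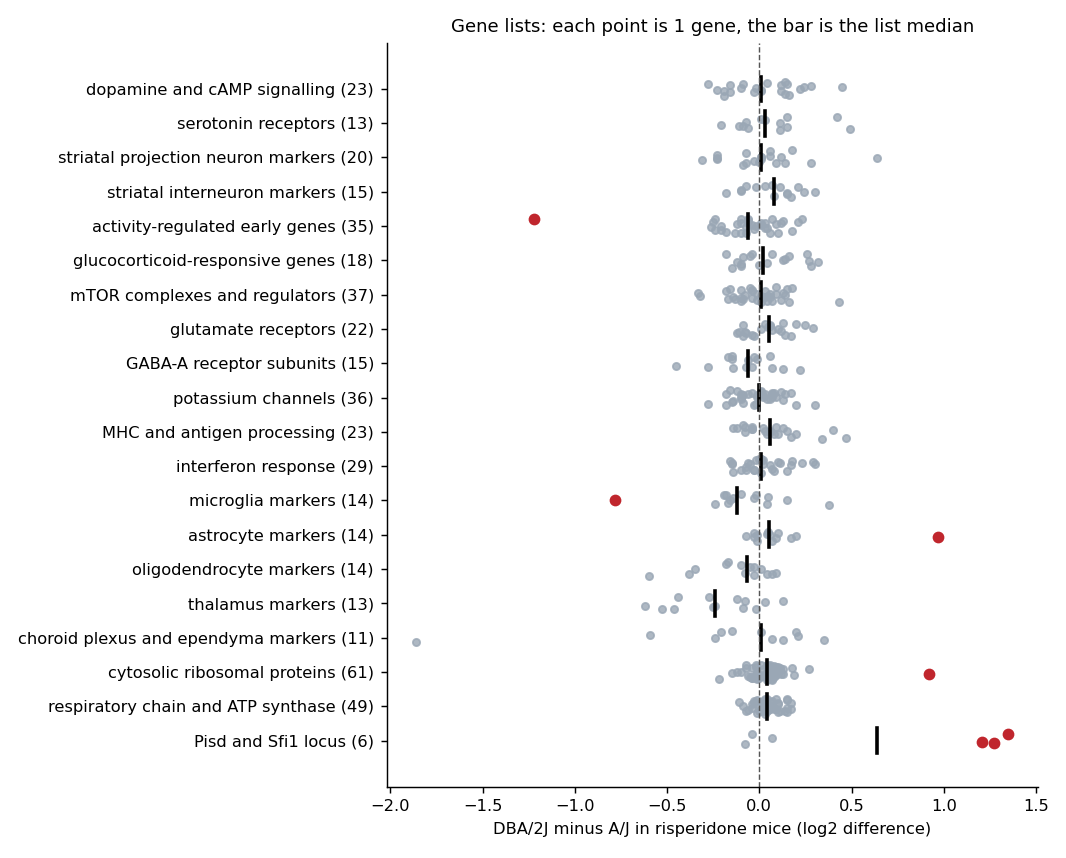
DBA/2J minus A/J log2 difference in risperidone mice for the members of 20 gene lists, each gene by its probe set of highest mean level, with the number of measured genes in brackets; red points passed an adjusted p of 0.05 and bars are list medians. The thalamus markers have a median of -0.24, the Pisd and Sfi1 locus has 0.64 with 3 called genes between 1.21 and 1.35, and Ier5 at -1.22 is the one called early gene.

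Ier5 was the 1 call among 35 early genes, whose transcription follows neuronal firing; 21 of them were lower and their median was -0.06. Fos, a subunit of the transcription factor AP-1, was at 7.92, 7.88, 7.76 and 7.93 in A/J and at 7.76, 8.12, 7.81 and 8.18 in DBA/2J. The strains overlapped, with 0.10 ± 0.10 (adjusted p = 0.84). The 18 glucocorticoid-responsive genes had a median of 0.02 with 0 called. Mt1, a metallothionein, was at 10.50, 10.55, 10.41 and 10.56 in A/J and at 10.97, 10.63, 10.84 and 10.84 in DBA/2J. Every DBA/2J array was higher, but the difference of 0.32 ± 0.08 did not pass (adjusted p = 0.0923), and Fkbp5, which binds the glucocorticoid receptor complex, was at 0.26 (adjusted p = 0.587). The study's title names the mTOR pathway, which couples growth signals to protein synthesis. Its 37 measured genes had a median of 0.01 with 0 called. The kinase gene Mtor was at 8.64, 8.66, 8.68 and 8.68 in A/J and at 8.66, 8.69, 8.6 and 8.66 in DBA/2J. The 8 arrays were nearly equal, with -0.01 ± 0.07 (adjusted p = 0.978). Prr5, a component of mTOR complex 2, was at 0.43 (adjusted p = 0.103), and the S6 kinase gene Rps6kb2 at -0.33 (adjusted p = 0.326).

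Neurotransmitter receptor and channel lists held 0 calls. Medians were 0.05 for 22 glutamate receptors, -0.06 for 15 GABA-A receptor subunits, 0.00 for 36 potassium channels and -0.03 for 19 RGS proteins, which limit G protein signalling. Gabrr2, a rho subunit, was at 4.5, 4.29, 4.55 and 4.46 in A/J and at 3.88, 4.16, 3.74 and 4.21 in DBA/2J. The strains did not overlap, yet -0.45 ± 0.12 missed the threshold (adjusted p = 0.0886). Kcnk1, a potassium leak channel, was at 8.74, 8.71, 8.49 and 8.75 in A/J and at 8.88, 8.98, 8.98 and 9.07 in DBA/2J. A/J replicate 3 was its lowest array and the difference was 0.30 (adjusted p = 0.112). Values of the other named members were 0.22 for the subunit gene Gabra5, 0.29 for the kainate receptor gene Grik1, 0.25 for the NMDA receptor gene Grin3a, 0.34 for Rgs12 and -0.28 for the G protein-gated channel gene Kcnj3, with adjusted p from 0.327 to 0.56.

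Metabolic and ribosomal lists were near the median of all genes. Of 38 genes of glutathione and xenobiotic metabolism (median 0.00) the cytochrome P450 gene Cyp4f15 was called, at 5.44, 5.48, 5.18 and 5.49 in A/J and at 6.25, 5.94, 5.68 and 6.08 in DBA/2J. Replicate 3 was the lowest A/J array, and the call at 0.59 (adjusted p = 0.0409) missed in 12 of 25 settings, among them without that array (adjusted p = 0.194). Of 61 cytosolic ribosomal protein genes (median 0.04) 3 were called: Rpl14, Rpl17 by 1 of 3 probe sets (0.80, adjusted p = 0.0254; 0.00 for the brightest) and Rpsa by 1 of 2 (-0.54, adjusted p = 0.0145; -0.07 for the other). Without A/J replicate 3 the Rpl17 and Rpsa probe sets missed (adjusted p = 0.0806 and 0.0806), and with it alone Rpsa missed (adjusted p = 0.123). Ribosomal protein genes have many processed copies, so these calls are uncertain. The 49 respiratory chain and ATP synthase genes had a median of 0.04 with 38 higher, against 55.0% of all genes, and 0 called. Among them were Cox7a2l (0.17, adjusted p = 0.518) and Uqcrfs1 (0.15, adjusted p = 0.557). The 19 sterol synthesis genes had a median of 0.05 with 0 called. Sc5d, a sterol desaturase, was at 7.00, 7.03, 7.08 and 6.89 in A/J and at 6.66, 6.63, 6.67 and 6.79 in DBA/2J. The strains did not overlap, with -0.31 (adjusted p = 0.106), and Hmgcs1, an early enzyme of the pathway, was at 0.28 (adjusted p = 0.438).

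A list of genes with known strain variants was also read, in which an uncalled difference says nothing about the strain labels. Myo5a encodes the motor myosin Va, and DBA strains carry its dilute coat colour allele. It was called by 1 of 3 probe sets, at 9.09, 8.94, 9.16 and 8.90 in A/J and at 8.33, 8.59, 8.49 and 8.67 in DBA/2J. Every DBA/2J array was lower, by -0.50 ± 0.08 (adjusted p = 0.00459), which missed with A/J replicate 3 alone (-0.64, adjusted p = 0.0591). The other 2 did not overlap either but missed the threshold, at -0.35 (adjusted p = 0.0937) and -0.36 (adjusted p = 0.0569). Gpnmb, a melanosomal glycoprotein mutated in DBA/2J, was at 4.87, 4.96, 5.41 and 4.79 in A/J and at 4.73, 4.75, 4.97 and 4.84 in DBA/2J. Its levels were low and overlapped (-0.18, adjusted p = 0.713). Dysf, dysferlin, mutated in A/J, was at -0.17 (adjusted p = 0.589), Klrd1, a natural killer cell receptor, at 0.15 (adjusted p = 0.809), the melanin enzyme gene Tyrp1 at -0.06 (adjusted p = 0.922) and Glo1, glyoxalase, at -0.19 (adjusted p = 0.489). The 14 genes had a median of 0.05. For the male label, the Y-linked gene Eif2s3y was at 7.91, 8.18, 8.10 and 8.17 in A/J and at 8.35, 8.29, 8.22 and 8.06 in DBA/2J. It lay above the array medians in every risperidone array. Xist, the RNA of the inactive X chromosome, was at 5.89, 5.79, 5.92 and 5.73 in A/J and at 5.58, 5.59, 5.63 and 5.87 in DBA/2J, close to the array medians. The 4 genes of this list had a median strain difference of 0.04 with 0 called.

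Probe sets of 1 gene often disagreed, and some called genes were neighbours in the genome. Of the 175 called genes 123 have more than 1 probe set, and in 10 of these all were called. Of the 210 uncalled probe sets of called genes 144 shared the sign of a called one. Of 172 called genes placed on the GRCm38.p6 gene order, 21 (12.2%) had another called gene within 3 measured genes, against 5.67% of genes not called, a difference that was not tested. They formed 10 runs. In the run of 3, Nnt, a mitochondrial transhydrogenase, 4833420G17Rik and the chemokine gene Ccl28 were lower in DBA/2J, at -0.70, -0.87 and -0.62. The keratin genes Krt12 and Krt20 were lower, at -0.81 and -0.84, as were 5830417I10Rik and 1500004A13Rik, at -0.52 and -0.93, and Cx3cr1 and Rpsa, at -0.78 and -0.54. Zfp772 and Vmn2r29 were higher, at 0.84 and 0.68, as were Cog1 and Cpsf4l, at 0.70 and 0.56, and Uri1 and 1600014C10Rik, at 0.53 and 0.55. The other 3 runs paired genes of opposite direction, Mael (0.87) with Ildr2 (-0.41), Uhmk1 (0.57) with Uap1 (-0.71), and Slx1b (0.89) with Nupr1 (-0.44).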

How the data were processed

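Per the submitters' processing notes the authors used RMA without naming a version, and what they deposited is 1 log2 level per probe set and array with 2 decimals; scanning and array filters are not given in the sources used here. The table lists 45141 probe sets; the 104 AFFX ones were dropped and no filter on level was set. Gene names come from the platform annotation, and Entrez IDs tied 28689 of the named probe sets to RefSeq genes of GRCm38.p6, which changed 0 symbols. Groups and replicate numbers follow the titles and strain and agent labels. DBA/2J risperidone replicates 2 to 4 carry the same description label, but only 1.75% to 2.34% of their values were identical, against 1.11% to 2.86% for arrays of any 1 group, so all 4 were counted.

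A model of 4 group means over the 16 arrays was fitted in R 4.3.3 by lmFit and eBayes of limma 3.58.1, and p was adjusted by Benjamini-Hochberg over 45037 probe sets; tests were two-sided and the script was tested on simulated data. A gene counted as called when the adjusted p of any probe set specific to it was under 0.05, and printed values are from its brightest probe set unless another is named. Tables were joined with pandas 2.3.3 and plotted with matplotlib 3.10.9. The number of arrays limits precision (median SE 0.107). The members, gene lists and rules were chosen with earlier results of these data known, and lists are described by counts and medians without a test.

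The rule for named genes took, by the brightest probe set of each gene, the 10 largest called differences in each direction without overlap, up to 4 called members of each list or else the 2 with the smallest p, a fixed set of known genes, the 10 smallest interaction p, the 10 called genes with the largest deviation of A/J risperidone replicate 3, and genes with calls in opposite directions. Deviations of same-numbered arrays correlated at -0.045, 0.039, -0.055 and 0.162, so the numbers were not taken as pairs. Alternatives were array weights, quantile normalization of the deposited values, a filter at the median level, median centring, 1 probe set per gene or their mean for each gene, trend and robust eBayes, the replicate block, a minimum fold, only 8 arrays, replicate 3 alone, other marker choices, and leaving out each array. Leaving out DBA/2J control replicate 4 with DBA/2J risperidone replicate 1, and each control array in the marker positions, was chosen after seeing the data.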

Additional observations from a re-analysis of the deposited data

Results flagged for a closer look

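Groups of 4 risperidone arrays of 1 strain were examined, 248 in all. They covered 26 named genes called by their brightest probe set, 68 other named genes, 29 list means and the median marker position. In 17 groups the gap of an array to its nearest other array exceeded Dixon's 95% limit, as a share of the group's range. Chance flags about 1 in 20 groups where genes are not chosen by their values. Many of these genes were chosen by values on the same arrays, some by the deviation of A/J replicate 3. The counts below are therefore a description and cannot be set against that rate. A/J replicates 1 to 4 accounted for 3, 1, 5 and 3 of the 17, and DBA/2J replicates 1 to 4 for 1, 2, 1 and 1. Values are log2 levels.

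In A/J replicate 3, Pisd-ps3 was at 6.88 against 8.37 to 8.63 in the other A/J arrays, H2-DMa at 5.29 against 5.68 to 5.76, and Kcnk1 at 8.49 against 8.71 to 8.75. Cyp4f15 was at 5.18 there against 5.44 to 5.49, and Glo1 at 10.58 against 10.46 to 10.47. All 5 lay on the side away from DBA/2J.

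In A/J replicate 1, Baiap2l1 was at 8.28 against 7.97 to 8.02, C6 at 6.09 against 5.85 to 5.89 and Dysf at 5.67 against 5.40 to 5.43. In A/J replicate 2, Rps6kb2 was at 7.03 against 6.79 to 6.81. In A/J replicate 4, Gm20754 was at 4.34 against 4.03 to 4.06, Uqcrfs1 at 8.28 against 8.12 to 8.14, and the mean of the respiratory chain list at 10.04 against 9.98 to 9.99.

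In DBA/2J replicate 1, C6 was at 5.45 against 5.71 to 5.76. In DBA/2J replicate 2, Ttc39c was at 6.68 against 6.92 to 6.95 and Zc3h6 at 5.37 against 5.30 in the other 3. In DBA/2J replicate 3, Cdh5 was at 5.76 against 5.90 to 5.92. In DBA/2J replicate 4, the mean of the dopamine and cAMP list was at 7.49 against 7.11 to 7.17, the array in which Slc6a3, a member of that list, was at 7.55.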

How the results depend on the processing

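The count of 352 probe sets and 175 genes called in risperidone mice was 101 and 101 with 1 probe set per gene (fewer tested), 218 and 97 with A/J risperidone replicate 3 alone, 621 and 337 with array weights, and 214 and 100 at least 1.5-fold. Leaving out 1 array gave 184 to 540 probe sets and 85 to 293 genes, lowest without A/J risperidone replicate 3 and highest without DBA/2J control replicate 4; without A/J risperidone replicate 1 it gave 222 and 103. The 1745 probe sets and 908 genes of control mice became 596 and 596, 1119 and 576 with replicate 3 alone, 864 and 447 with the 8 control arrays, 635 and 314 at least 1.5-fold, and 1074 to 1753 and 553 to 919 leaving out 1 array, lowest without A/J control replicate 3. The interaction, at 0, called 2 probe sets and 1 gene with replicate 3 alone, 1 probe set with array weights, with the filter, with trend and robust eBayes or without DBA/2J control replicate 4 and DBA/2J risperidone replicate 1, and 0 to 26 probe sets and 0 to 7 genes leaving out 1 array. The cause of these shifts was not tested. With the replicate number as a block, 352 probe sets were called in risperidone mice.

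The position of DBA/2J replicate 1 was 92.0% by markers higher in DBA/2J, and those of A/J replicates 1, 2 and 4 were 44.0%, 53.3% and 54.8% by the same markers and 17.0%, 21.5% and 26.5% by markers higher in A/J. Against replicate 3 alone, list medians were -0.08 for projection neurons, 0.04 for early genes, -0.56 for the thalamus, -0.24 for oligodendrocytes, -0.35 for the choroid plexus and ependyma, and 1.06 for the Pisd and Sfi1 locus. Leaving out 1 array, the microglia median ran from -0.16 to -0.08, the thalamus median from -0.28 to -0.07, that of oligodendrocytes from -0.25 (without DBA/2J replicate 4) to 0.04 (without DBA/2J replicate 1) and that of the choroid plexus and ependyma from -0.30 (without DBA/2J replicate 1) to 0.13 (without DBA/2J replicate 3). Signs of small uncalled differences turned: Gfap was 0.01 with array weights, and Lamp5 was 0.05 and Tac1 -0.10 against replicate 3 alone. Leaving out 1 array gave -0.07 to 0.06 for Gfap, -0.03 to 0.06 for Pdyn, -0.12 to 0.01 for Plpp1, -0.02 to 0.09 for Scube1 and -0.05 to 0.29 for Tac1. Of 26 named genes called by their brightest probe set, 16 passed in all settings run, 10 missed in at least 1 and 0 reversed. Genes called only by another probe set, such as Gfap, Myo5a, Xaf1, Rpl17 and Rpsa, are not among the 26.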
